A study of Homo sapiens with 6 samples.

Results

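The serpins are a superfamily of proteins that share a single fold, and most of them inactivate serine or cysteine proteases by acting as a bait that traps the enzyme in a covalent complex. Some members have lost this activity and work instead as hormone carriers or as a chaperone. The family is divided into lettered clades. Clade A holds mostly secreted liver proteins, clade B intracellular inhibitors that are prominent in squamous epithelia and blood cells, and clades C to I hold regulators of clotting, fibrinolysis, complement, collagen folding and nerve cells.

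Serpin gene expression was measured by RNA-seq in COV434 cells, an established line that the study treats as a model of SCCOHT, a small cell cancer of the ovary with hypercalcemia, after reexpression of BRG1, the SWI/SNF ATPase encoded by SMARCA4. Members were taken as every row of the deposited table whose symbol is SERPIN followed by a clade letter from A to I and a number. This gave 35 of 19899 genes, with 11 in clade A, 13 in clade B and 11 in clades C to I. Control samples (n = 3) were parental COV434 cells that received the plasmid pCDNA3-neo, and BRG1 samples (n = 3) were the same cells that received PBJ5-BRG1. Both groups also received the puromycin resistance plasmid pBABE-puro at a ratio between 10 and 6.25 to 1 and were selected for 3 days with puromycin at 2 to 3 µg/ml, begun 24 hours after transfection. The labels call the samples of a group biological replicates. The plasmids carry different backbones, so an effect of the BRG1 protein and an effect of its vector cannot be told apart.

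The libraries held between 29699741 and 63613710 estimated counts, and BRG1 sample 3 was the shallowest. The transfected gene was checked first. SMARCA4 had 1439, 1676 and 1538 normalised counts (estimated counts divided by the library's DESeq2 size factor) in Control samples 1 to 3 and 108655, 79075 and 78589 in BRG1 samples, plasmid transcripts included (log2 fold change 5.84, DESeq2 adjusted p 5.4e-216). Of the blood cell markers PTPRC, CD3E, CD14, LYZ, HBB, HBA1 and ITGAM, which a pure culture should lack, CD3E and HBA1 had 1 count each over all samples. Their summed level of 347 to 679 in Control and 413 to 797 in BRG1 samples came mostly from PTPRC, and LYZ and HBB were called higher with BRG1 (means of 1.06 and 19.0 for LYZ and of 1.94 and 32.5 for HBB). Their part in the serpin results was not tested.

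The sequences just before the transcription start are shown for 6 serpin genes, chosen after their values were seen, because the study links BRG1 to AP-1 and because members of the chromosome 14 cluster rose together. They are the 250 bases before the start in RefSeq (GRCh38.p14), written in the direction of transcription. Capitals mark the AP-1 letters TGANTCA and the GAS letters TTCNNNGAA, to which STAT factors bind. Both motifs read the same on either strand, and no match of the other motif overlaps them. SERPINB8 rose with BRG1, SERPINB2 was called by DESeq2 with the replicate number in the model but not without it, SERPINB13 was not called, and SERPINA5, SERPINA11 and SERPINA3 rose from near 0.
SERPINB8, chr18:63969831-63970080, plus strand: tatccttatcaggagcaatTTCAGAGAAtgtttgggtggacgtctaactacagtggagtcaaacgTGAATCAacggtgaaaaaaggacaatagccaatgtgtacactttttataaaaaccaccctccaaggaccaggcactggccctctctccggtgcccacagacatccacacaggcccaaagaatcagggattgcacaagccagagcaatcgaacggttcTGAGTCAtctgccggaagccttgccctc
SERPINB2, chr18:63887455-63887704, plus strand: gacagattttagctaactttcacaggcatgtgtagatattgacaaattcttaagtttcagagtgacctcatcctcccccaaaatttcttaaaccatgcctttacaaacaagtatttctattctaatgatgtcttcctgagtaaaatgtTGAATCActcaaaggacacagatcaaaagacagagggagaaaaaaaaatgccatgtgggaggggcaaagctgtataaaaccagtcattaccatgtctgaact
SERPINB13, chr18:63587093-63587342, plus strand: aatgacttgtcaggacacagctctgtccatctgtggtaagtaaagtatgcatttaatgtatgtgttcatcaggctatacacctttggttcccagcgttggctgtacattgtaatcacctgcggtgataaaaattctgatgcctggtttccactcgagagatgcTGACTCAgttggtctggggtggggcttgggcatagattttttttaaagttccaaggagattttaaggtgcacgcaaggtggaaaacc
SERPINA5, chr14:94581176-94581425, plus strand: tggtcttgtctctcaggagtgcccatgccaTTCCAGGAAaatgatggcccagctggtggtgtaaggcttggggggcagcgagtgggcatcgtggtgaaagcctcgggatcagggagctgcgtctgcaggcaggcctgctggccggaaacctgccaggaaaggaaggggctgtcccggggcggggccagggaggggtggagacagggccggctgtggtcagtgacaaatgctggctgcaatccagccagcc
SERPINA11, chr14:94452801-94453050, minus strand: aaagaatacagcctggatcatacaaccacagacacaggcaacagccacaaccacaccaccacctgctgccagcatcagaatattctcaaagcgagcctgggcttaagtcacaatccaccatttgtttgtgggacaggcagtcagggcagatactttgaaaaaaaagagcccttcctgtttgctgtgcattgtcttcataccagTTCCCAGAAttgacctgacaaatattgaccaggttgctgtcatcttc
SERPINA3, chr14:94612141-94612390, plus strand: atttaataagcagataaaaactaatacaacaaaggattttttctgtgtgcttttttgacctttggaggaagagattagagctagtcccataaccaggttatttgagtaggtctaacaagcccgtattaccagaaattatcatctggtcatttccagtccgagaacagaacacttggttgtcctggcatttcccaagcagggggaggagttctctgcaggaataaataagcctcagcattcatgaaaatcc

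Of the 27 members with a promoter entry, 7 held the AP-1 letters, compared with 6.57% of all 35116 promoters. They were SERPINB2, SERPINB5, SERPINB8, SERPINB12, SERPINB13, SERPINE3 and SERPINI2, and of these SERPINB8 was called higher by DESeq2. SERPINE3 and SERPINI2 received no adjusted p. SERPINB8 held the letters at 2 places, from 185 to 179 and from 28 to 22 bases before the start. The GAS letters were in 8 of the 27, compared with 6.57% of all promoters. Of these 8, SERPINA5, SERPINA11 and SERPINB8 were called, and SERPINB7 and SERPINB12 were not. The others, SERPINA6, SERPINB1 and SERPINI2, received no adjusted p. The letters of an interferon response element, searched on both strands as GAAA, any 2 bases and GAAA, were in 0 of the 27 and in 3.02% of all promoters. SERPINA1, SERPINA3, SERPINA9, SERPINE2 and SERPINH1 rose, and this window of theirs held none of the searched letters. A match of letters is a description and does not show a binding site. The members without a promoter entry, whose sequence was not searched, included SERPINA2, SERPINB10, SERPINB11, SERPINC1, SERPINF1, SERPINF2 and SERPING1.

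BRG1 reexpression was accompanied by higher transcript levels of 10 serpin genes and by lower levels of none (0 genes). SERPINA3 and SERPINA5 rose more than 100-fold from a few counts, while SERPINE2 and SERPINH1 rose from levels that were already high. Others that rose included SERPINA1, SERPINA9, SERPINA11, SERPINB8 and SERPING1. In these bulk samples, more cells with a transcript and more of it per cell cannot be told apart. A gene was called when its DESeq2 Benjamini-Hochberg adjusted p over all genes was under 0.05, and over all genes 11.0% were called higher and 1.84% lower. Of the 35 members, 34 had a count in any sample, 23 received an adjusted p and 12 did not. Several members passed DESeq2's filter on low means only through their BRG1 samples. Among the 12 members with a Control mean of at least 10 normalised counts, which leaves the BRG1 samples out of the choice, 3 were called higher, while over all genes with such a Control mean the share was 8.32%. The other 7 called members were below that Control mean. The edgeR quasi-likelihood test called 9 members higher and 0 lower (9.57% of all genes higher and 1.02% lower), losing SERPINA1. Without adjustment, at p under 0.05, DESeq2 and edgeR each had 0 members lower. With the replicate block DESeq2 again had 0 and edgeR had 1, SERPINB13.

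**Figure D1:**
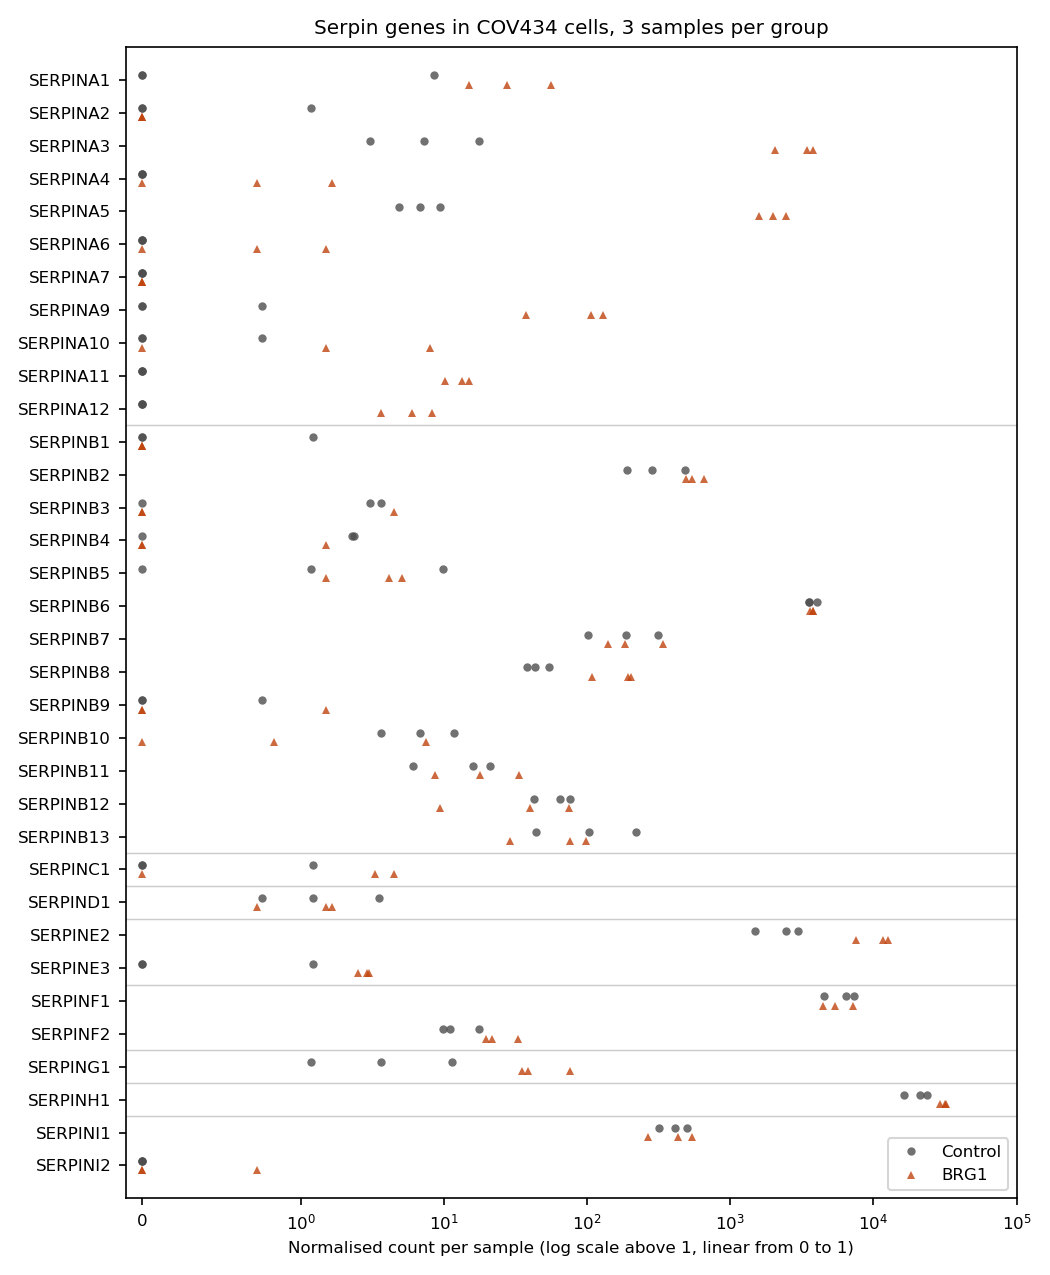
Normalised counts of 34 serpin genes in each sample, ordered by clade, with Control samples as circles and BRG1 samples as triangles. The axis is logarithmic above 1 and linear from 0 to 1. The groups stand far apart for SERPINA3, SERPINA5 and SERPINA9 and lie on each other for SERPINB6, SERPINF1 and SERPINI1.

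Clade A gave 5 of the 10 calls. SERPINA3, on chromosome 14 from 94612384 to 94624055, encodes alpha-1-antichymotrypsin, an acute phase inhibitor of cathepsin G and chymotrypsin-like enzymes. It had 7.31, 17.6 and 3.03 normalised counts in Control samples 1 to 3 and 3443, 3755 and 2064 in BRG1 samples 1 to 3. Every BRG1 sample was more than 100 times above every Control sample. The means were 9.31 ± 7.48 and 3087 ± 900 (SD, n = 3), and DESeq2 gave a log2 fold change of 8.45 with SE (standard error) 0.46 and an adjusted p of 3.3e-74 (edgeR adjusted p 9.6e-05). The exons of another annotated gene cover 31.7% of its exonic bases, so part of its value may belong there. The log2 fold change stayed between 7.95 and 9.33 when any replicate was left out. It was highest without Control replicate 2, the highest of its group.

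SERPINA5 (chromosome 14, 94561442 to 94593118) encodes the protein C inhibitor, a secreted inhibitor of activated protein C and other serine proteases. Its normalised count was 4.87, 9.38 and 6.81 in Control and 2454, 1990 and 1597 in BRG1 samples. The groups lay far apart and the spread within each was small beside the difference. Exons of SERPINA4, and of the annotated gene that overlaps SERPINA3, cover 3.52% of the exonic bases of SERPINA5. DESeq2 gave a log2 fold change of 8.17 (SE 0.39, adjusted p 5.7e-93, edgeR adjusted p 1.2e-05), which stayed between 7.99 and 8.38 when any replicate was left out.

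Between these and the proximal end of the cluster, 3 further members rose from few or no counts. SERPINA9 (94462717 to 94479689), known from germinal centre B cells, had 0, 0 and 0.757 normalised counts in Control and 129, 107 and 37.3 in BRG1 samples (DESeq2 adjusted p 4.3e-08, edgeR adjusted p 0.00113). Control held 1 count in all, and the ratio was 306 with a counting interval of 54.5 to 12109 (95%, exact binomial). SERPINA11 (94442464 to 94452800) was at 0 in every Control sample and at 10.2, 15.0 and 13.4 in BRG1 samples, at least 12.6-fold higher against 3 counts over the Control group (DESeq2 adjusted p 0.0012, edgeR adjusted p 0.00848). This call was lost without BRG1 replicate 2 (DESeq2 adjusted p 0.0772). SERPINA1 (94376747 to 94390693), which encodes alpha-1-antitrypsin, the main plasma inhibitor of neutrophil elastase, had 8.53, 0 and 0 normalised counts in Control and 55.9, 27.4 and 14.9 in BRG1 samples. Its groups did not overlap, but the call was weak (log2 fold change 3.60, DESeq2 adjusted p 0.0377).

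The SERPINA1 call was lost under edgeR (adjusted p 0.0881) and was kept with the replicate number as a block, where DESeq2 gave an adjusted p of 0.00202 and edgeR 0.0152. Leaving out Control replicate 2 or 3, or BRG1 replicate 1 or 2, also ended it, with DESeq2 adjusted p-values of 0.123, 0.108, 0.492 and 0.24. Without Control replicate 1, the only Control sample with counts, the log2 fold change was 7.57.

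The remaining clade A genes stayed near 0. SERPINA12 encodes vaspin, an inhibitor of the kallikrein KLK7. It had 0 counts in all Control samples and 3.63, 8.31 and 5.97 normalised counts in BRG1 samples, and was not called (DESeq2 adjusted p 0.0708). The thyroxine carrier gene SERPINA7 was at 0 in every sample. SERPINA2, SERPINA4 (kallistatin), the corticosteroid carrier gene SERPINA6 and SERPINA10 (protein Z-dependent protease inhibitor) did not exceed 7.98 normalised counts in any sample and received no adjusted p.

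Clade A members other than SERPINA7 lie together on chromosome 14, from the start of SERPINA10 at 94280460 to the end of SERPINA3 at 94624055 (GRCh38, GENCODE release 44), with no other gene of the table between them. Of these 10 neighbours, 6 received an adjusted p, and 5 of them were called higher and 0 lower. Over all genes with an adjusted p, at any Control level, 11.0% were called higher. The 5 called neighbours all had Control means below 10 normalised counts, so this is not a like share for them. The other 5 were at 3 or fewer counts in every Control sample, as were the called SERPINA9 and SERPINA11. Of the 5 table genes on each side of the cluster, 3 of 10 were called higher. These were IFI27, with a log2 fold change of 8.59, CLMN with one of 1.65, and SYNE3, which was at 0 in every Control sample and lost its call with the replicate block (DESeq2 adjusted p 0.102). The genes next to the cluster on either side, PPP4R4 and GSC, were not called (log2 fold changes 0.41 and 0.32, DESeq2 adjusted p 0.826 and 0.916).

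**Figure D2:**
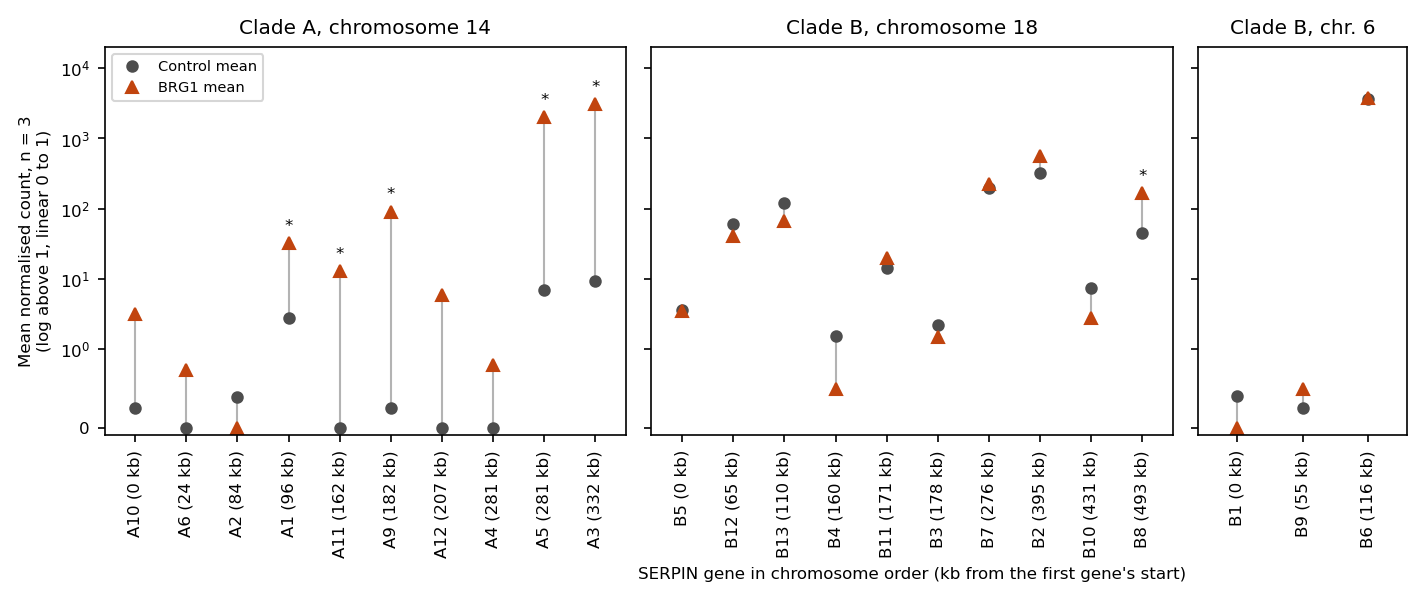
Mean normalised counts (n = 3) of the clustered serpin genes in Control (circles) and BRG1 samples (triangles), in chromosome order, with the distance of each gene's start from the first start in kb. Asterisks mark genes called by DESeq2, which are 5 of 10 on chromosome 14, 1 of 10 on chromosome 18 and 0 of 3 on chromosome 6.

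Clade B, the largest clade, gave a single call. Its 13 members lie on chromosome 18 (10 genes between 63476958 and 64019779) and on chromosome 6 (3 genes between 2832332 and 2972165). DESeq2 called 1 of them higher and 0 lower, and edgeR gave the same counts. The called gene was SERPINB8 (63970029 to 64019779), a cytoplasmic inhibitor of furin and other proteases. It had 37.8, 43.4 and 53.8 normalised counts in Control and 202, 193 and 107 in BRG1 samples. BRG1 sample 3 was the lowest of its group but still above every Control sample. Its log2 fold change was 1.89 (SE 0.36; DESeq2 adjusted p 3.5e-06, edgeR adjusted p 0.00891). The exons of other genes, among them HMSD, cover 9.07% of its exonic bases.

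SERPINB2 encodes plasminogen activator inhibitor type 2. It had 189, 285 and 485 normalised counts in Control and 540, 652 and 491 in BRG1 samples. The groups did not overlap, but BRG1 sample 3 exceeded Control sample 3 by little, and paired by replicate number the samples differed 2.86-fold, 2.29-fold and 1.01-fold. The log2 fold change of 0.81 was not called (DESeq2 adjusted p 0.12). DESeq2 called it once the replicate number was a block in the model (log2 fold change 0.91, adjusted p 0.0156), which brought the members called higher to 11, with 0 lower. In that fit 13.4% of all genes were higher and 6.62% lower. The edgeR fit with this block did not call it (adjusted p 0.0618) and had 10 members higher and 0 lower, beside 13.7% and 5.68% of all genes. When any replicate was left out, the log2 fold change ran from 0.54 to 1.24. DESeq2 called it only without Control replicate 3, its highest Control sample (adjusted p 0.000253). Leaving out any other sample gave no call, with DESeq2 adjusted p-values up to 0.46. Exons of another gene cover 19.96% of its exonic bases.

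Several clade B genes known from keratinocytes, SERPINB13, SERPINB12, SERPINB7, SERPINB5, SERPINB3 and SERPINB4, were not called. SERPINB13 (headpin), an inhibitor of lysosomal cathepsins, had 43.9, 103 and 219.6 normalised counts in Control and 29.0, 75.6 and 98.5 in BRG1 samples. The groups overlapped, with lower BRG1 than Control values in each of the 3 replicate numbers, and the log2 fold change was -0.87 (DESeq2 adjusted p 0.517). With the replicate block edgeR gave a log2 fold change of -0.76, an unadjusted p of 0.0241 and an adjusted p of 0.0913, which is no call. SERPINB12 had Control and BRG1 means of 61.2 ± 17.2 and 41.3 ± 32.6 and SERPINB7 (megsin) of 199.8 ± 106 and 222 ± 105 (SD, n = 3), and the groups overlapped in both. SERPINB5, which encodes maspin, a member without inhibitory activity, did not exceed 9.84 normalised counts in any sample. SERPINB3 and SERPINB4, the squamous cell carcinoma antigens, did not exceed 4.48, and because they share 41.1% of their 31-base words how reads were split between the pair is uncertain. Exons of SERPINB11 also cover 36.3% of the exonic bases of SERPINB3. SERPINB11 had Control and BRG1 means of 14.4 and 19.9 normalised counts and was not called.

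Keratinocyte genes were measured beside these. Of KRT5, KRT14, TP63, IVL, SFN and KRT6A, DESeq2 called 5 of 6 higher, beside 11.0% of all genes. The edgeR test called 5 of the 5 it tested, beside 9.57% of all genes. The summed level of the 6 rose from between 263 and 497 normalised counts in Control to between 56748 and 147686 in BRG1 samples. Most of this sum was KRT6A, with means of 322 and 99167. TP63, which encodes the master regulator of the basal keratinocyte, had 7.16 ± 4.29 and 6.12 ± 1.22 (SD, n = 3) and was not called. Their part in the serpin results was not tested.

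On chromosome 6, SERPINB6, an intracellular inhibitor of cathepsin G and trypsin-like enzymes, was the most abundant clade B transcript. It had 3522, 4024 and 3524 normalised counts in Control and 3786, 3614 and 3789.6 in BRG1 samples. The log2 fold change was 0.02 with a 95% interval of -0.23 to 0.26. Its neighbours SERPINB1, an elastase inhibitor of leukocytes, and SERPINB9, the granzyme B inhibitor of cytotoxic cells, had at most 1.49 normalised counts in any sample. Among the blood cell serpins, SERPINB10 had a Control mean of 7.40 ± 4.07 and a BRG1 mean of 2.76 ± 4.09 (SD, n = 3) and was not called.

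SERPINE2 (chromosome 2, 223975045 to 224039318) encodes protease nexin-1, a cell surface inhibitor of thrombin and urokinase. It rose from 1494, 2459 and 2988 normalised counts in Control to 12707, 11711 and 7499 in BRG1 samples. In absolute counts this was the second largest gain in the family after SERPINH1. DESeq2 gave a log2 fold change of 2.20 (SE 0.30, adjusted p 9.8e-12, edgeR adjusted p 0.00207), and the paired samples differed 8.51-fold, 4.76-fold and 2.51-fold. SERPINE3, whose exons overlap those of INTS6, had means of 0.406 ± 0.703 and 2.79 ± 0.264 (SD, n = 3) and received no adjusted p.

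**Figure D3:**
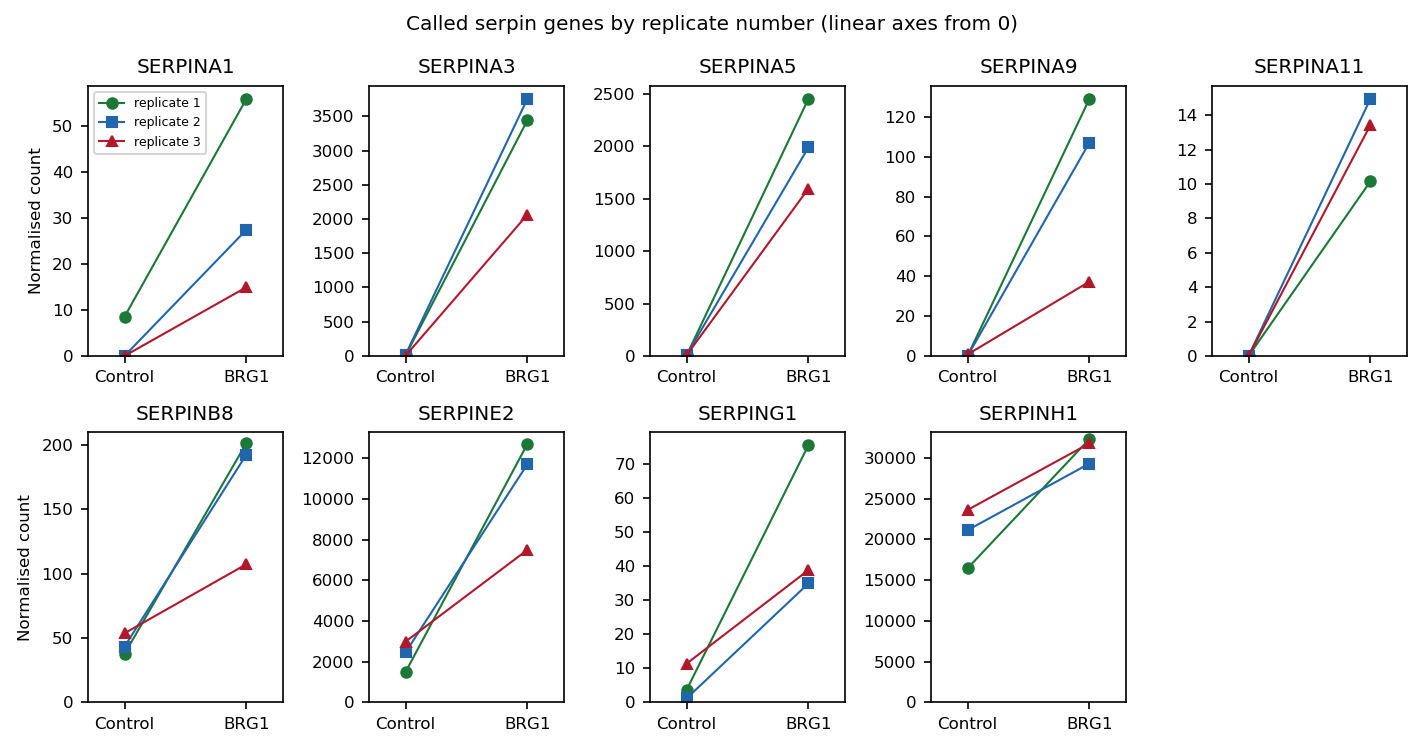
Normalised counts of 9 called serpin genes, with a line joining the Control and BRG1 samples of the same replicate number and linear axes from 0. Every line rises. BRG1 sample 3 is the lowest BRG1 sample in SERPINA1, SERPINA3, SERPINA5, SERPINA9, SERPINB8 and SERPINE2, but not in SERPINA11, SERPING1 or SERPINH1.

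The remaining clades differed from gene to gene. SERPINH1 (chromosome 11, 75562056 to 75572783) encodes the collagen chaperone of the endoplasmic reticulum, which does not inhibit proteases. It had 16455, 21136 and 23622 normalised counts in Control and 32330, 29315 and 31788 in BRG1 samples. The rise was small in proportion, with a log2 fold change of 0.61 (SE 0.18), and the groups did not overlap (DESeq2 adjusted p 0.00576, edgeR adjusted p 0.0315).

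SERPING1 (chromosome 11, 57597387 to 57619171) encodes the C1 inhibitor, which blocks the complement proteases C1r and C1s. It had 3.65, 1.17 and 11.4 normalised counts in Control and 75.4, 34.9 and 38.8 in BRG1 samples, and its log2 fold change was 3.13 (SE 0.78; DESeq2 adjusted p 0.000812, edgeR adjusted p 0.0254). The call was lost without BRG1 replicate 1 (log2 fold change 2.71, DESeq2 adjusted p 0.0705), and without Control replicate 3 the log2 fold change was 4.38. SERPING1 is known as an interferon-inducible gene. Of 25 interferon response genes, DESeq2 called 24 higher and edgeR 24, beside 11.0% and 9.57% of all genes. Of the 25, 0 were lower by either (0 lower without adjustment, at p under 0.05). Their median log2 fold change was 5.15, and their summed level rose from between 29335 and 33274 normalised counts to between 310973 and 341990. Their part in the serpin results was not tested.

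SERPINF1, which encodes the secreted anti-angiogenic factor PEDF, a member without inhibitory activity, was abundant and overlapped between groups. It had 4543, 7325 and 6457 normalised counts in Control and 4468, 5417 and 7149 in BRG1 samples, and the 95% interval of the log2 fold change ran from -0.60 to 0.39. The neuronal inhibitor gene SERPINI1 (neuroserpin) likewise overlapped, with 410.1 ± 92.0 and 412 ± 138 (SD, n = 3) and an interval of -0.62 to 0.61. SERPINF2 (alpha-2-antiplasmin) had means of 12.8 ± 4.19 and 24.7 ± 7.14 (SD, n = 3) and was not called (DESeq2 adjusted p 0.41), although the groups did not overlap. SERPINC1 (antithrombin), SERPIND1 (heparin cofactor II) and SERPINI2 did not exceed 4.48 normalised counts in any sample and received no adjusted p.

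**Figure D4:**
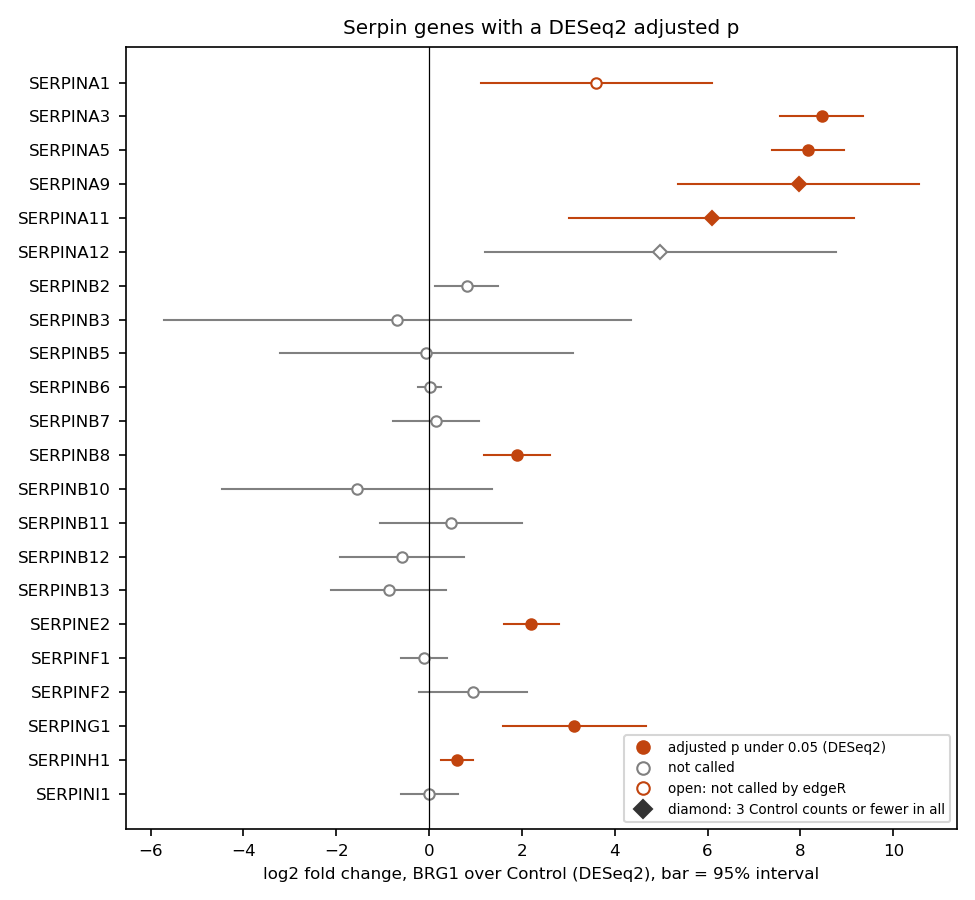
DESeq2 log2 fold changes of BRG1 over Control for 22 serpin genes with an adjusted p, with 95% intervals. Genes called by DESeq2 are coloured, filled symbols were called by edgeR, and diamonds are genes with 3 Control counts or fewer in all, whose fitted change depends on the model. All 9 called genes plotted lie to the right of 0, and SERPINB8 is the only called gene of clade B.

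Levels of different members were compared per kilobase of exon of the canonical transcript. In Control the order was SERPINH1 with 9915, SERPINF1 with 4248, SERPINB6 with 2806 and SERPINE2 with 1039 normalised counts per kilobase, followed by SERPINI1 with 256. In BRG1 samples SERPINH1 had 15133, SERPINE2 4779, SERPINF1 3949, SERPINB6 2837, SERPINA3 1959 and SERPINA5 884. SERPINE2 and SERPINF1, which followed each other in this order, overlapped between samples (3369 to 5709 and 3107 to 4972 per kilobase), so their order with BRG1 is not established. SERPINH1 took 51.0% to 55.1% of the summed level of the family in Control and 46.6% to 52.0% in BRG1 samples. This sum was 18629.6 ± 3238 per kilobase in Control and 30759 ± 1202 with BRG1 (SD, n = 3).

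The proteases that serpins inhibit, and their receptors and cofactors, were examined from a list of 50 genes, all in the table. DESeq2 gave 36 an adjusted p, of which 17 were higher and 0 lower, while edgeR called 15 higher and none (0) lower. Over all genes the shares called higher were 11.0% and 9.57%. Of the 22 listed genes with an adjusted p and a Control mean of at least 10 normalised counts, 11 were called higher by DESeq2, beside 8.32% of all such genes. Without adjustment, at p under 0.05, 0 were lower by either tool. The median log2 fold change of the 36 was 0.74, against -0.01 over all genes with an adjusted p. With the replicate block DESeq2 called 18.

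Of the plasminogen and clotting enzymes on the list, PLAT was the only one called. PLAT, the tissue plasminogen activator, rose from 4.98 ± 2.01 to 85.0 ± 70.4 normalised counts (SD, n = 3; DESeq2 adjusted p 5.9e-06, edgeR adjusted p 0.0132), with BRG1 samples 1 to 3 at 160.3, 73.9 and 20.9. PLAU, the urokinase gene, had 2.28 ± 3.32 and 18.2 ± 13.0 and was not called (DESeq2 adjusted p 0.0933), nor were F7, F12 and PROC, and the other enzymes of the group received no adjusted p. F3, the tissue factor gene that starts clotting, had a log2 fold change of 6.03, and F2R, the thrombin receptor gene, of 2.64. VTN encodes vitronectin, an adhesion protein of plasma and matrix, and rose from 16.4 ± 5.79 to 321 ± 176 (SD, n = 3; log2 fold change 4.32). Both DESeq2 and edgeR called F3, F2R and VTN.

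The complement proteases that SERPING1 inhibits rose as well. On the log2 scale C1R rose by 4.07, C1S by 3.93 and MASP1 by 5.82, and edgeR also called all of them. MASP2 was not called (log2 fold change 0.66, DESeq2 adjusted p 0.508). Among kallikreins of the skin, KLK5, KLK7, a target of SERPINA12, and KLK8 had log2 fold changes of 7.73, 4.13 and 3.92. KLK5 rose the most of the listed genes that were called, from 7.45 ± 3.42 to 1606 ± 939 normalised counts (SD, n = 3).

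Cysteine proteases were also called. CTSV and CTSL, cathepsins that clade B serpins can inhibit, had log2 fold changes of 2.20 and 0.61, CASP4 of 2.00 and CASP1 of 0.89. CTSS had one of 2.25, and its groups overlapped. The calls of CTSS and CASP1 were lost under edgeR (adjusted p 0.0792 and 0.0961) and held with the replicate block (edgeR adjusted p 0.0268 and 0.0262, DESeq2 adjusted p 0.0461 and 0.0125). Under edgeR without the block, these were the only calls of the list that were lost. CTSB was not called (log2 fold change 0.50, DESeq2 adjusted p 0.06) and was called with the replicate block (DESeq2 adjusted p 0.00367, edgeR adjusted p 0.0331). CASP8, at 1447 ± 56.1 and 1789 ± 124 (SD, n = 3), was not called (DESeq2 adjusted p 0.122).

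Of the receptors that clear serpin complexes, VLDLR rose from 39.1 ± 9.24 to 556 ± 201 normalised counts (SD, n = 3; log2 fold change 3.82), whereas LRP1 had 15740 ± 1013 and 14509 ± 2127 and was not called (DESeq2 adjusted p 0.802). LRP2 and LRP8 were not called either (DESeq2 adjusted p 0.894 and 0.905), nor was the urokinase receptor gene PLAUR (DESeq2 adjusted p 0.851). PNPLA2, which encodes a receptor of the SERPINF1 protein, rose by 0.82 on the log2 scale (DESeq2 adjusted p 0.00143). The granulocyte proteases ELANE, CTSG and PRTN3, targets of SERPINA1, SERPINA3 and SERPINB6, were not called, with Control means of 18.7, 9.55 and 6.23.

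**Figure D5:**
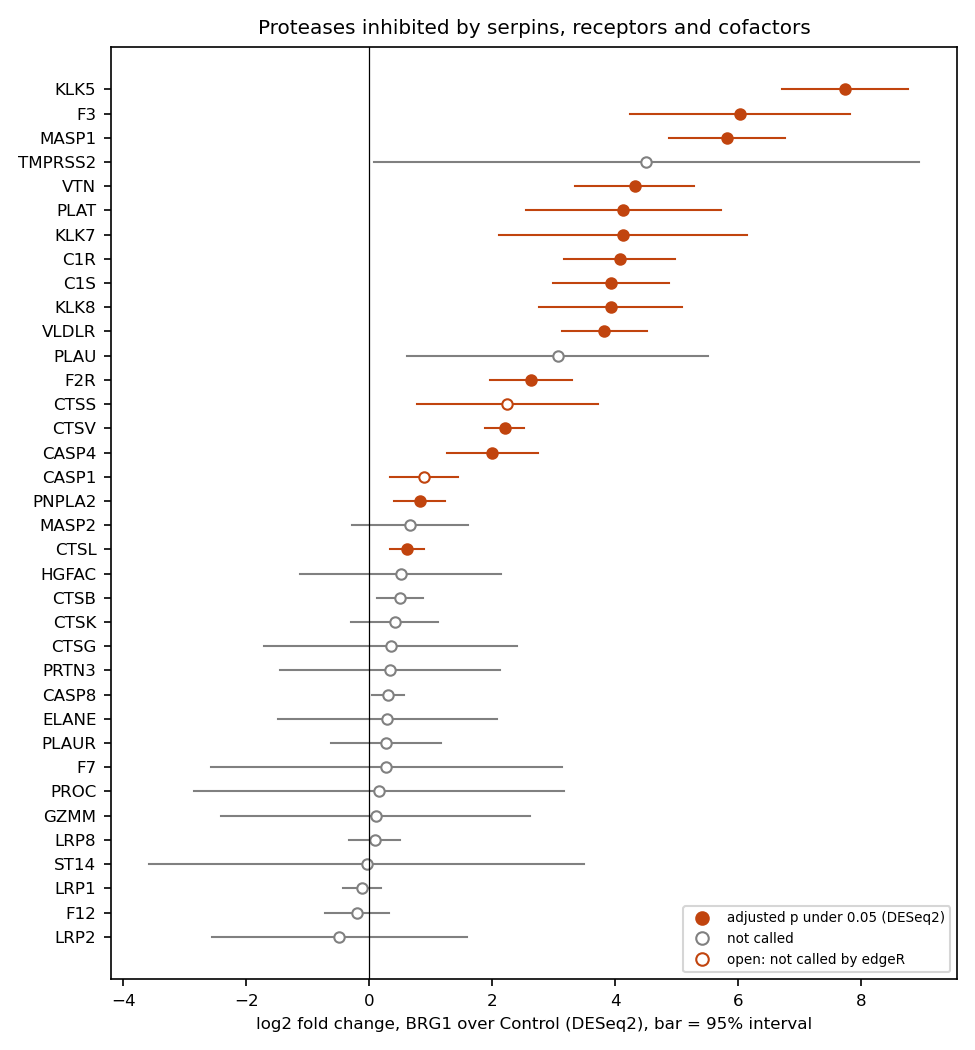
DESeq2 log2 fold changes of BRG1 over Control with 95% intervals for the 36 genes of proteases, receptors and cofactors with an adjusted p. Coloured genes were called by DESeq2 and filled symbols by edgeR. The 17 called genes all lie to the right of 0.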

How the data were processed

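The deposited table gives estimated counts by gene symbol, which the authors derived with STAR (version 2.5.3a), salmon (version 0.8.2) and tximport from TPM scaled by transcript length and library size. The libraries were unstranded poly(A) libraries from 500 ng of RNA, read as pairs of 78 bases, so antisense and overlapping genes cannot be separated. Estimated counts were rounded and genes at 0 in every sample were left out of the fit. Of the 19899 genes, 15991 received an adjusted p. BRG1 was tested against Control with DESeq2 (Wald test, version 1.42.0, R 4.3.3), the tool the study names. It states no covariate. Alternatives were edgeR (version 4.0.16), limma-voom (version 3.58.1), TMM factors, a filter of 10 counts in 3 samples, an adjusted p under 0.01, leaving out each sample, and the replicate number as a block.

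Samples with the same number deviated together from their group means (r = 0.34, 0.30 and 0.46 across 14220 genes for numbers 1 to 3). The main fit did not use this pairing, and fits with the number as a block were run as alternatives. On data simulated for this comparison in which 200 genes had a log2 change of 2, DESeq2 recovered 94% over 17425 genes and 19.7% of its calls were false. For edgeR, over 14236 genes, these were 83.5% and 4.57%. With 2000 changed genes the false shares were 6.73% and 3.64%. The changed genes went up or down at random and were drawn only from genes above a minimum mean count. Recovery was therefore not measured at counts as low as those of SERPINA1 and SERPINA11. DESeq2 with the replicate block, which called SERPINB2, had 25.4% false calls with 200 changed genes and 7.43% with 2000. The simulated counts held no replicate effect, so these shares do not measure the block fit on samples that share one. Since the false share of DESeq2 exceeded its threshold, edgeR values or calls are given beside it.

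A fold against a group at 0 was computed against 3 counts over that group. Intervals from counts cover counting error only. Genes were named by a rule: members by clade, with full statistics for called members and levels for uncalled members with a mean of at least 100 normalised counts, and in the list of proteases and receptors the called genes and the 3 uncalled ones with the highest mean. PLAU, PLAUR, F7, F12, PROC, MASP2, LRP2, LRP8, ELANE, CTSG, PRTN3 and TP63 were named after their values were seen. The members and lists were chosen with earlier results of these data known. Values of 1 serpin gene, which is included in the counts of members, and of 1 blood cell marker are not reported here.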

Additional observations from a re-analysis of the deposited data

How the results depend on the processing

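At these counts DESeq2 gave 12 members no adjusted p, so whether they changed was not decided. The number of serpin genes called higher ran from 8 to 11 over the alternatives and the number called lower was 0 in each, as for the listed proteases and receptors (15 to 18 higher) and interferon genes (24 higher). The log2 fold change of SMARCA4 stayed between 5.67 and 5.92. Clade B members called higher (1) were 2 with the DESeq2 replicate block, by the addition of SERPINB2, and ran from 1 to 2 when a replicate was left out. Without the replicate block in the model, edgeR and limma-voom each called 9 serpin genes higher. With the edgeR replicate block it was 10. The replicate block changed the DESeq2 call of no serpin gene but SERPINB2. With the low-count filter 8 were called, because SERPINA11 was no longer tested and SERPINA1 had an adjusted p of 0.0632 (DESeq2).

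Of uncalled genes near 0, SERPINB6 had a log2 fold change of -0.0021 with TMM factors and SERPINI1 of 0.0038 with the low-count filter. When a replicate was left out, SERPINB6 ran from -0.020 to 0.080, SERPINB7 from -0.30 to 0.62, SERPINF1 from -0.31 to 0.043 and SERPINI1 from -0.24 to 0.24. The cause was not tested.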

Other observations

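AGT, which encodes angiotensinogen and belongs to the serpin superfamily but does not carry the family's symbol, had 1 count in 1 BRG1 sample and 0 counts in every Control sample. HMSD, the only gene of the table that lies among the clade B genes of chromosome 18 without being a member, had means of 0.252 and 1.59 normalised counts in Control and BRG1 samples. Next to that cluster, the genes on either side were VPS4B, which was not called (log2 fold change 0.16, DESeq2 adjusted p 0.755), and CDH7, which was called lower (log2 fold change -1.26, DESeq2 adjusted p 0.0442) but not by edgeR (adjusted p 0.0507) or with the replicate block (DESeq2 adjusted p 0.173).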
